A study of Homo sapiens with 2 samples.

Results

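TGM2, the gene for tissue transglutaminase, was followed in RNA-seq of A549 cells, a lung adenocarcinoma line that is established in culture. It was taken as 1 gene of 1415 in the table analysed, of which 798 were labelled protein-coding, by its gene symbol. The gene was chosen by its RPKM and by the size of its RPKM difference in these same libraries, so the values that follow are a description and carry no test. There were 2 libraries, 1 from control A549 cells in the wild-type state and 1 from A549 cells with CRISPR/Cas9 knockout of NAT10, which places N4-acetylcytidine (ac4C) on RNA. Both came from total RNA, and neither had a replicate. The knockout line was grown from a single-cell clone after transfection with a pair of guides against the fifth exon and puromycin selection, whereas the control was the wild-type line. A trait of that clone and the loss of NAT10 therefore cannot be told apart. NAT10 itself was not analysed here, so the knockout label was not checked on its own transcript.

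Transglutaminase 2 is a calcium-dependent enzyme that joins glutamine to lysine residues and so crosslinks proteins. It also binds and hydrolyses GTP, in which form it can relay signals from receptors on the cell membrane. A part of it reaches the cell surface, where it binds fibronectin and integrins and serves as an adhesion co-receptor. Its transcription is known to respond to retinoic acid, to NF-kB and to TGF-beta. The study asked which transcripts depend on NAT10 and singled out cell adhesion as a theme.

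TGM2 (ENSG00000198959) lies on the minus strand of chromosome 20 in GRCh38, at chr20:38127387-38166578, and spans 39192 bases. GENCODE release 29 gives it 6 transcripts, 3 of them protein-coding, with 8036 exon bases in total. The transcript with the longest coding sequence has 13 exons and 5070 bases, made up of 174 bases of 5′ UTR, 2061 coding bases without the stop codon and 2832 bases of 3′ UTR. One other gene shares exon bases with it: RPRD1B, on the opposite strand, covers 394 bases (4.90%) at the end of the last exon. The handling of strand in the counting is not given, so reads from those bases cannot be assigned to either gene.

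TGM2 RNA was much lower in the knockout. In RPKM, which is reads scaled by gene length and library size, the control library had 36.3 and the knockout library 6.0. These levels correspond to 1771 control reads and 264 knockout reads. The 95% Poisson interval from the reads ran from 34.6 to 38.0 RPKM in the control and from 5.30 to 6.77 RPKM in the knockout, and the intervals did not overlap. They cover counting error only, since reads carry no molecular identifiers and there is no spread between cultures to set them against. The knockout level was 16.5% of the control level, with a 95% Clopper-Pearson interval from 14.5% to 18.8%. Expressed the other way, the control was 6.04-fold higher, with an interval from 5.31 to 6.90. The log2 ratio of RPKM was -2.60, with an interval from -2.79 to -2.41, and the log2(RPKM + 1) difference was -2.41. From bulk RNA, less TGM2 RNA in every cell and fewer cells with TGM2 RNA cannot be told apart.

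The gene was counted deeply for this table. Its 2035 reads over both libraries placed it at rank 6 among the 744 protein-coding genes with recovered reads, against a median of 31 reads. The counting error was 2.38% of the control value and 6.15% of the knockout value. In the control TGM2 took 3.89% of the reads recovered for these 744 genes, with an exact binomial interval from 3.72% to 4.08%. In the knockout it took 0.935%, with an interval from 0.826% to 1.05%. Listed protein-coding genes without recovered reads, PTP4A1 and TFPI2 among them, are not in these totals, so the shares of all reads would be smaller.

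By level, TGM2 was near the top of the listed protein-coding genes in both states. Its mean of 21.1 RPKM ranked 12 of 798. In the control it ranked 10, at 56.9 times the median of 0.638 RPKM. In the knockout it ranked 34 and was still at 12.3 times the median of 0.488 RPKM. In the order of control levels its neighbours were PTGES, which encodes an enzyme of prostaglandin E2 synthesis, at 39.0 RPKM, and the histone gene HIST1H4K at 33.2 RPKM. The interval of PTGES, from 35.5 to 42.8 RPKM, and that of HIST1H4K, from 25.5 to 42.5 RPKM, both overlapped the interval of TGM2. The next gene down, PMEPA1, had an interval from 26.3 to 29.9 RPKM, which did not. In the order of knockout levels TGM2 stood between TRIB3, at 6.12 RPKM, and CYP1B1, at 5.98 RPKM, and did not differ from either beyond counting error.

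**Figure D1:**
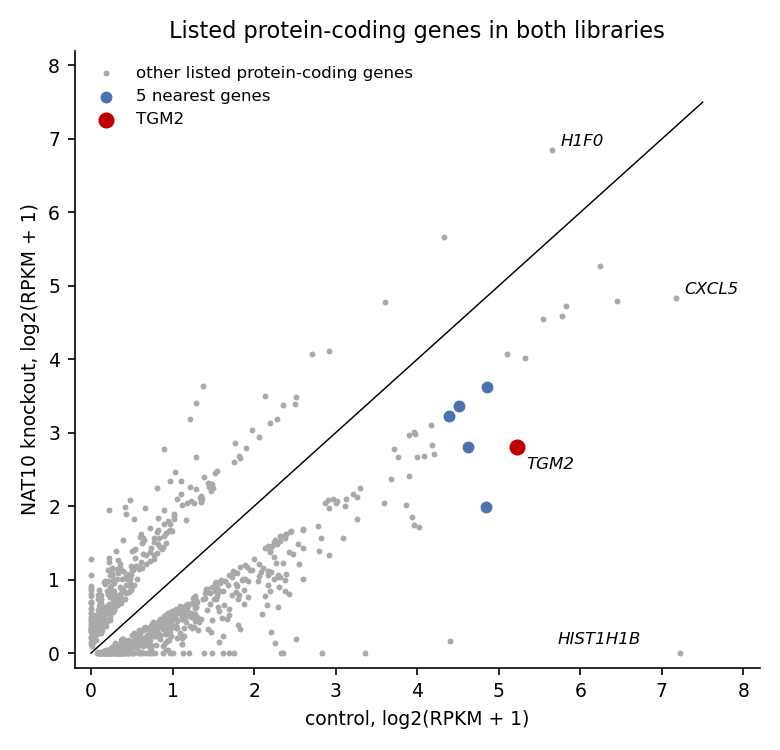
Each point is 1 of the 798 listed protein-coding genes, with the control level on the x axis and the NAT10 knockout level on the y axis, both as log2(RPKM + 1). The line marks equal levels, and TGM2 (red) lies below it at the high end, with 36.3 RPKM in the control and 6.0 RPKM in the knockout. The band without points along the line is where the table lists no genes.

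By size of the RPKM difference, TGM2 ranked 9 of 798, and 7 among the 490 protein-coding genes that were lower in the knockout. The difference was 30.3 RPKM, with a counting standard error of 0.937 RPKM. The 3 genes just above it were all within 1 standard error of TGM2. AMIGO2, which encodes a cell adhesion protein with leucine-rich repeats, differed by 30.6 RPKM, from 53.8 in the control to 23.2 in the knockout. INHBB, the gene for an activin and inhibin subunit, differed by 30.5 RPKM in the opposite direction, from 19.1 to 49.6. TNS4, which encodes a tensin of focal adhesions, differed by 30.3 RPKM, from 55.7 to 25.4. The order of TGM2 among these 4 genes is thus within counting error. Below it came CXCL1 at 24.8 RPKM, PTGES at 23.9 RPKM and TFPI2, the gene for a protease inhibitor of the extracellular matrix, at 23.4 RPKM. The difference of CXCL1 had a standard error of 1.99 RPKM and that of PTGES 2.20 RPKM. AMIGO2 and TNS4 started from higher control levels than TGM2 and kept more of them, with log2 ratios of RPKM of -1.22 and -1.13 against -2.60.

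Among 35 listed protein-coding genes with at least 10 RPKM in the control, 32 were lower in the knockout library and 3 were above their control level, and TGM2 had the fifth lowest log2 ratio. The background over all listed protein-coding genes was 61.4% lower. The 35 genes were picked by a high control level among genes that differed, which by itself favours genes lower in the knockout. Their count and median are therefore not read against that background. The median log2 ratio of the 35 genes was -1.37. Ahead of TGM2 stood HIST1H1B, CEACAM6, CXCL1 and CDCP1, and the next after it were PTGS2 and CXCL5. HIST1H1B and CDCP1 were named after their values were seen. The intervals of HIST1H1B, with 613 control reads and 0 knockout reads, and of CEACAM6, with 374 and 2 reads, lay wholly below that of TGM2. For 5 other genes the interval overlapped it: CXCL1, CDCP1, PTGS2, CXCL5 and CXCL2. CXCL5, the chemokine that the study followed, had a log2 ratio of RPKM of -2.38 with an interval from -2.54 to -2.22, on 2216 control reads and 384 knockout reads. TGM2 and CXCL5 therefore had log2 ratios that these reads do not separate, from control levels of 36.3 and 144 RPKM.

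**Figure D2:**
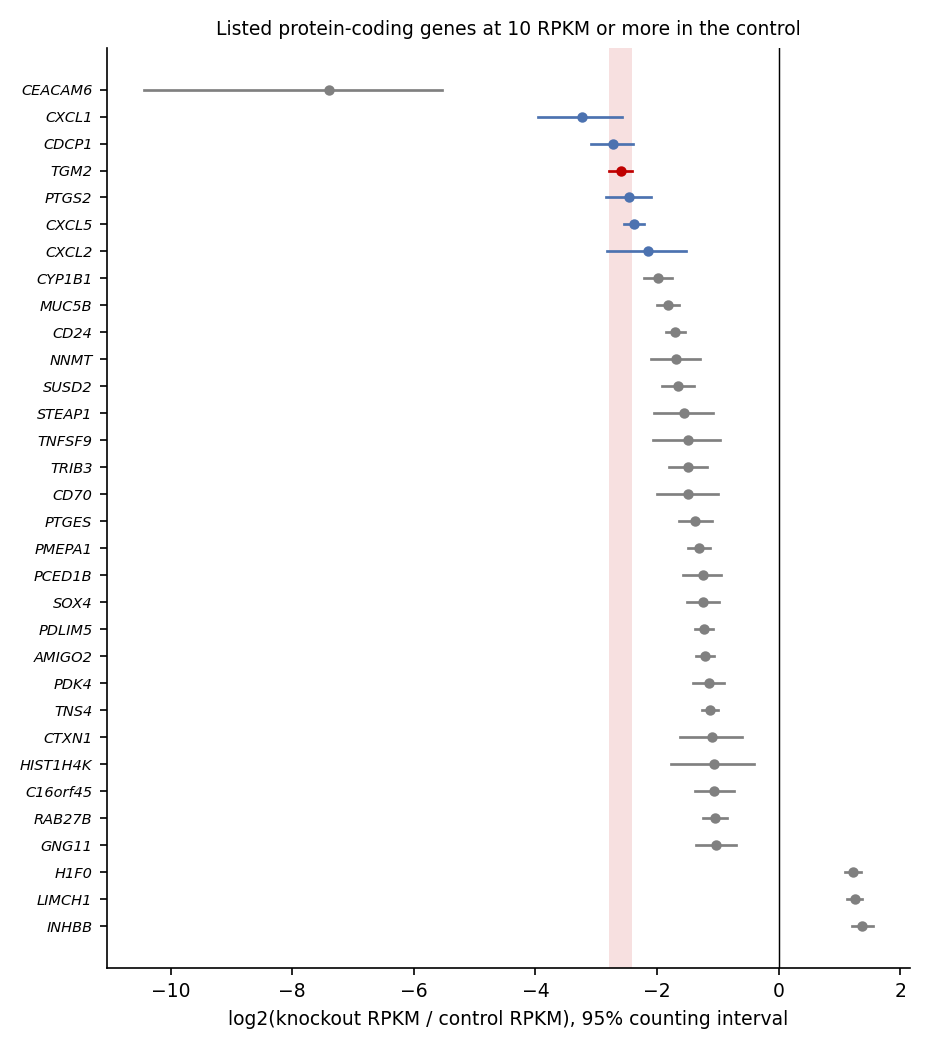
Log2 ratio of knockout over control RPKM (x axis) for 32 of the 35 protein-coding genes at 10 RPKM or more in the control that had a closed interval, one gene per line in order of the ratio. Points are ratios and lines are 95% Clopper-Pearson intervals, with TGM2 in red, its interval from -2.79 to -2.41 shaded, and the 5 genes whose interval overlaps it in blue. HIST1H1B, at 0 knockout reads, and TFPI2 and PTP4A1, without recovered reads, are not drawn.

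The genes whose pair of levels was most like that of TGM2 were found by distance in log2(RPKM + 1) over the 2 libraries. The nearest was CYP1B1, a cytochrome P450, at a distance of 0.60. CYP1B1 had 23.6 RPKM in the control and 5.98 RPKM in the knockout. Next came PMEPA1, which encodes a membrane protein that restrains TGF-beta signalling, at a distance of 0.89, with 28.1 and 11.3 RPKM. CXCL1, which encodes a chemokine for neutrophils, followed at 0.90, with 27.8 and 2.96 RPKM. PDLIM5, the gene for a PDZ and LIM domain protein of the actin cytoskeleton, was also at 0.90, with 21.8 and 9.31 RPKM. PCED1B was at 0.93, with 19.9 and 8.37 RPKM. No other listed protein-coding gene lay within a distance of 1, and the median distance over all of them was 5.05. Of the 5 genes, CXCL1 alone had an interval of the log2 ratio that overlapped the one of TGM2. CYP1B1 had a log2 ratio of -1.98, with an interval from -2.21 to -1.75, so that it kept more of its control level than TGM2 did.

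**Figure D3:**
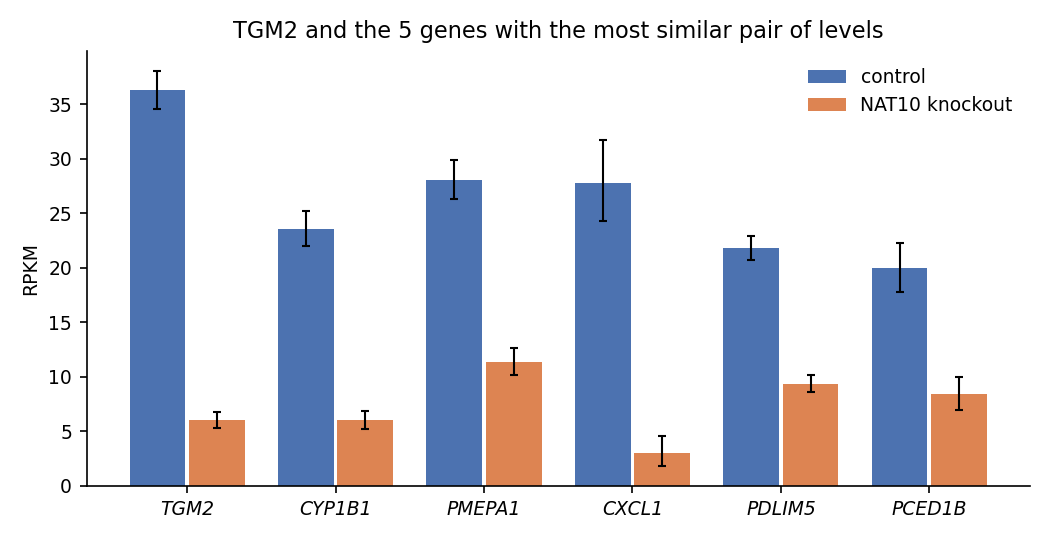
RPKM (y axis) of TGM2 and of the 5 listed protein-coding genes nearest to it by the pair of levels, in the control library (blue) and the NAT10 knockout library (orange). Bars are single libraries and whiskers are 95% Poisson intervals from the reads, and the TGM2 bars stand at 36.3 and 6.0 RPKM.

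On chromosome 20, 31 other genes were listed, 21 of them lower in the knockout and 10 higher. The share of lower genes over all 1415 genes was 57.0%. Of the 21 protein-coding ones 16 were lower, beside 61.4% of all listed protein-coding genes. Within 5 Mb of TGM2 there were 3 listed genes, all on the side of higher coordinates. KIAA1755, the closest, began 43.9 kb away and went from 9 reads to 2, with an interval of the log2 ratio that included 0. SNORA60, a small nucleolar RNA gene 283 kb away, went from 6 reads to 0. AL023803.3, a sense intronic transcript 796 kb away, went from 0 reads to 6. On the other side the closest were ANKRD20A21P at 7.40 Mb, with 8 and 1 reads, AL078587.1 at 12.1 Mb, with 13 and 4 reads, and PPIAP2 at 12.8 Mb, with 2 and 11 reads. The 6 genes that flank TGM2 in the table thus rested on 6 to 17 reads each, and their directions were mixed.

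The other genes of the pathway were taken from lists of genes known to act with TGM2. Of the 9 other members of the transglutaminase family 1 was listed. F13A1, which encodes the catalytic subunit of the transglutaminase that stabilises blood clots, had 0 control reads and 7 knockout reads, the latter at 0.273 RPKM. It was the one listed family member beside TGM2, at a far lower level and in the opposite direction. TGM1, TGM3 to TGM7, F13B and EPB42 were not analysed here. Of 17 other enzymes that crosslink or mature matrix proteins 1 was listed. PXDN, the peroxidase that crosslinks collagen IV, went from 1.21 to 0.178 RPKM, on 83 and 11 reads.

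Of the 33 surface and matrix partners of transglutaminase 2, 3 were listed, 2 lower and 1 higher in the knockout. This is near the background of listed protein-coding genes, 61.4% lower and 38.6% higher. ITGB3, an integrin chain that pairs with transglutaminase 2 at the surface, went from 0.374 to 0.0416 RPKM, on 10 reads and 1 read. ITGA4, an integrin chain that binds fibronectin, went from 0.500 to 1.20 RPKM, on 24 and 52 reads. COL1A1, a chain of collagen I, went from 0.503 to 0.223 RPKM, on 30 and 12 reads. Each was at or below 1.20 RPKM in both libraries, far below TGM2. The 30 other members, among them FN1 (fibronectin), ITGB1 and SDC4, were not analysed here. Of 18 intracellular partners 0 were listed.

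Genes of the signals known to induce TGM2 made up most of the listed members. Their lists were also large, with 34 genes for NF-kB, 28 for retinoids and 29 for TGF-beta, beside 185 genes over all lists. Whether any of these signals differed between the libraries was not tested. The NF-kB list held 34 inflammatory genes, of which 10 were listed and 10 were lower in the knockout. Over all protein-coding genes with a coding transcript, 795 of 19684 were listed. The background among listed protein-coding genes was 61.4% lower. By more than 1 on the log2(RPKM + 1) scale, 8 of the 10 were lower, with a background of 12.2%. A gene at or below 1 RPKM in the control cannot fall that far on this scale. The median control level of the listed protein-coding genes was 0.638 RPKM, so these shares differ in part by level. The list was also chosen with earlier results of these data known. The median of the 10 on that scale was -1.55, and that of all listed protein-coding genes was -0.32. With reads of 0 to 3 set at a floor of 3, the median log2 ratio was -2.26 for the 10 and -1.07 for all. The floor also limits how far a gene with few reads can fall. The chemokine genes CXCL1, CXCL2, CXCL3, CXCL5 and CXCL8 made up 5 of them, and these lie together on chromosome 4. PTGS2, the inducible cyclooxygenase, went from 14.3 to 2.60 RPKM, with a log2 ratio of -2.46 and an interval from -2.83 to -2.11, which contained the value of TGM2. C3, the central complement component, went from 6.58 to 1.54 RPKM, on 333 and 70 reads. LCN2, a secreted lipocalin, went from 1.96 to 0.114 RPKM, on 19 reads and 1 read. NFKBIZ, an atypical inhibitor of NF-kB, had a smaller difference, from 2.31 to 1.05 RPKM. VCAM1, an adhesion molecule, rested on 6 reads and 0 reads. The subunits NFKB1, NFKB2, RELA and RELB were not analysed here.

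Of 28 genes of the retinoid response 5 were listed, 4 lower and 1 higher in the knockout, where 61.4% of all listed protein-coding genes were lower. The higher one was RARB, a retinoic acid receptor that retinoic acid itself induces, with 1.78 RPKM in the control and 3.95 RPKM in the knockout, on 40 and 80 reads. RARB and TGM2, both known as retinoid-inducible, thus differed in opposite directions. RBP4, which encodes a carrier of retinol, went from 1.70 to 0.252 RPKM, on 15 and 2 reads. RARRES3 went from 1.39 to 0.281 RPKM, on 11 and 2 reads. DHRS9, a dehydrogenase that can act on retinol, had 12 reads and 0 reads. ALDH1A2, which makes retinoic acid, had 9 reads and 1 read. The median of the 5 on the log2(RPKM + 1) scale was -0.61, and with the floor of 3 reads the median log2 ratio was -1.72. For all listed protein-coding genes these medians were -0.32 and -1.07.

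Of 29 genes of TGF-beta signalling and mesenchymal transition 4 were listed, 3 lower and 1 higher. CDH1, which encodes E-cadherin of epithelial junctions, went from 8.82 to 3.76 RPKM, on 331 and 127 reads. LTBP2, which encodes a matrix protein related to the binders of latent TGF-beta, went from 4.42 to 2.15 RPKM. ZEB2, a repressor of CDH1, was at 0.119 RPKM in the control and 0.534 RPKM in the knockout, without recovered reads. COL1A1 was the fourth. Since the list holds both CDH1 and its repressor ZEB2, its count and median do not stand for a common direction of the transition. The median of the 4 on the log2(RPKM + 1) scale was -0.54, where that of all listed protein-coding genes was -0.32. With the floor of 3 reads the median log2 ratio was -1.10, close to the -1.07 of all listed protein-coding genes. Of 16 markers of A549 and lung epithelium 2 were listed, CDH1 and CEACAM6, and both were lower, CEACAM6 with 20.2 RPKM in the control and 0.120 RPKM in the knockout. The keratins and the NRF2-driven enzymes that mark A549 cells were not analysed here, so the cell line was not checked on them. Of 9 markers of leukocytes, endothelium and fibroblasts COL1A1 was the one listed. Over all lists 24 of 185 genes were listed, beside 795 of 19684 protein-coding genes with a coding transcript. Of the 24, 20 were lower and 4 higher, where the background among listed protein-coding genes was 61.4% lower and 38.6% higher. CXCL5 was the single member with a larger RPKM difference than TGM2.

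**Figure D4:**
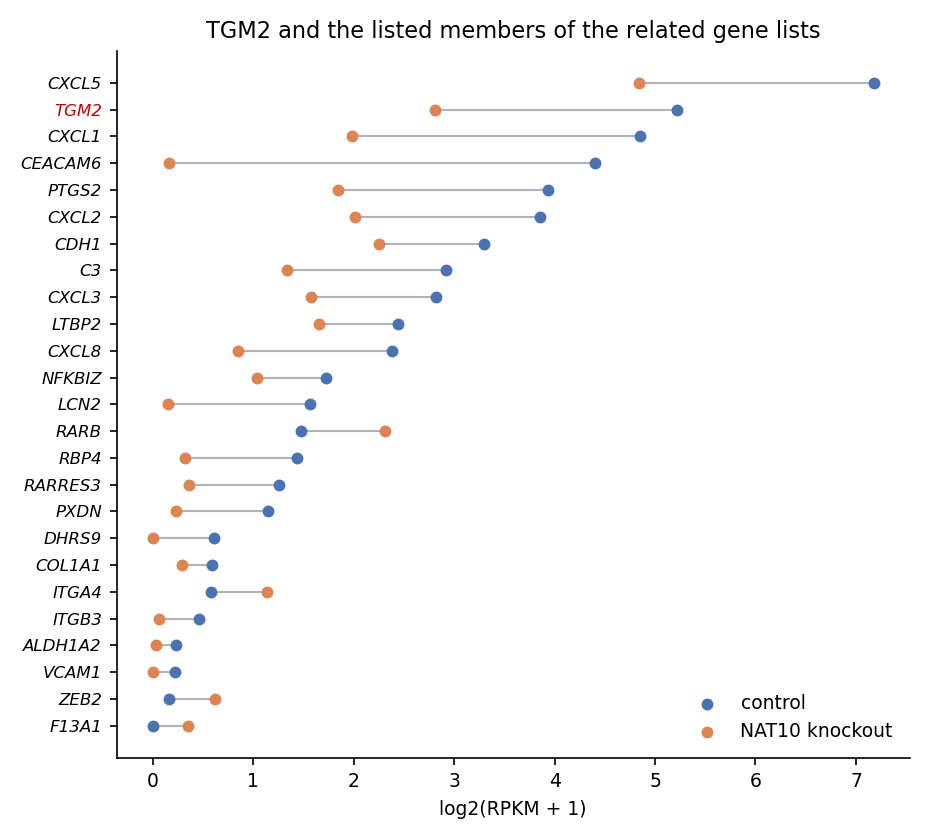
Levels of TGM2 and of the 24 listed members of the related lists as log2(RPKM + 1) (x axis), one gene per line in order of the control level, with the control library in blue and the NAT10 knockout library in orange. TGM2 (red name) stands second by control level after CXCL5, and the members with orange to the right of blue are RARB, ITGA4, ZEB2 and F13A1.

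The study describes ac4C as lying mostly on mRNA stretches where a C recurs every 3 bases. This pattern, written as CNNCNNCNNCNN with N for any base, was therefore searched on the sense strand of TGM2 and of 1 transcript for each protein-coding gene in GENCODE release 29. No ac4C measurement was analysed here, and a match is a description of the sequence and not a modified site. In TGM2 the pattern began at 73 positions, which overlap where a run is longer than 4 repeats and which merge into 41 runs. Of these runs 23 lay in the coding sequence, 5 in the 5′ UTR and 13 in the 3′ UTR. The longest and next longest runs of the coding sequence and the longest run of the 3′ UTR are shown, with each recurring C in capitals. Another run of 7 repeats in the 3′ UTR is not shown.

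TGM2 coding run of 10 repeats, exon 5, chr20:38147983-38148012, minus strand: CtgCtcCcgCcgCagCagCccCgtCtaCgt
TGM2 coding run of 7 repeats, exon 10, chr20:38138229-38138249, minus strand: CcaCatCacCaaCaaCacCgc
TGM2 3′ UTR run of 8 repeats, exon 13, chr20:38128281-38128304, minus strand: CtcCatCtcCggCccCttCcaCca

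In 20 of the 23 coding runs the recurring C was the third base of a codon, as it was in both coding runs shown. C made up 45.3% of the third codon positions of TGM2, above 91.4% of all protein-coding genes. The pattern is common in human transcripts: 98.7% of 19684 protein-coding genes held at least 1 match, and 17.2% had a run of at least 10 repeats. TGM2 had 14.4 matches per kb of transcript, or 1.44% of its 12-base windows. The median was 8.15 per kb over all protein-coding genes and 9.32 per kb over the 795 listed ones with a transcript, of which 69.1% lay below TGM2. The C content of TGM2, 29.0%, was above 73.7% of all genes. Among 2174 genes within 1 percentage point of that C content the median was 13.7 matches per kb, and 56.4% lay below TGM2. The density of the repeats in TGM2 was thus near the middle for transcripts of its C content. The 5 genes with the most similar levels ranged from 2.73 per kb in PDLIM5 to 22.8 per kb in PCED1B.

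**Figure D5:**
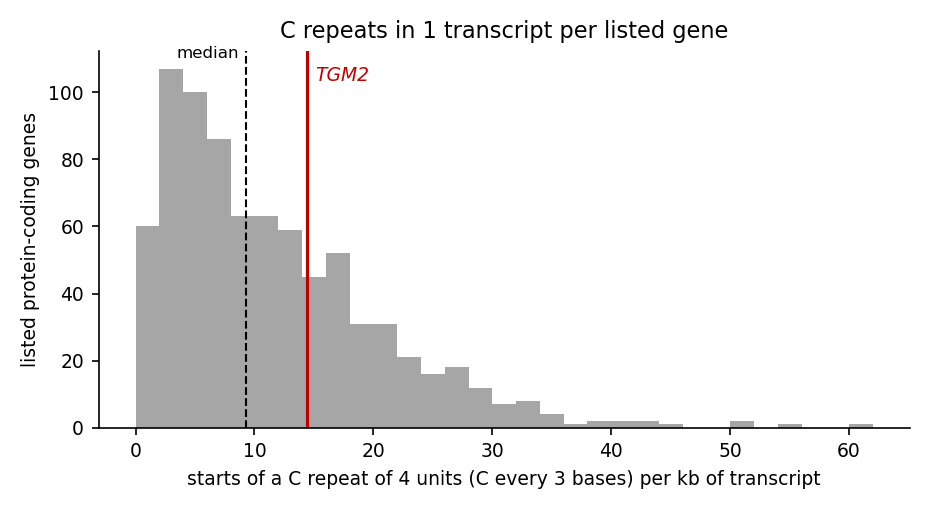
Number of listed protein-coding genes (y axis) by matches of the C repeat of 4 units per kb of transcript (x axis, bins of 2 per kb). The dashed line is the median of the listed genes at 9.32 per kb and the red line is TGM2 at 14.4 per kb, inside the bulk of the distribution.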

How the data were processed

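RNA libraries were prepared from total RNA with a SMARTer mRNA-seq kit and aligned to hg38, per the labels. The aligner, counting tool, annotation and strand handling are not given in the sources used here. The authors deposited RPKM for each gene in each of 2 libraries, which were grouped by their titles. The authors' fold changes, p-values, adjusted p-values and direction labels were not used. Besides the 2 RPKM columns, 0 columns held values per sample. The table was limited to genes that differed, with a fold of at least 1.99 in RPKM where both libraries were above 0, so shares and ranks describe listed genes only.

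Reads were recovered as RPKM times GENCODE release 29 exon length times an effective library size (6077933 for the control and 5474964 for the knockout), which gave whole reads, within 0.01, in both libraries for 1342 of 1408 genes with a length (95.3%). This step was tested on simulated data. With 1 library per group no test was made. Intervals of 95% (Clopper-Pearson for ratios and shares, Poisson for levels) cover counting error only. A pseudocount of 1 RPKM was used on the log2 scale, and counts of 0 to 3 reads were set at 3 where a floor is stated. Named genes were TGM2, the 5 nearest by pair of levels, 3 on each side by RPKM difference, up to 3 on each side on the chromosome, and all listed members of the gene lists. Outside these rules, HIST1H4K and TRIB3 were named as neighbours by level, and RPRD1B for its shared exon bases. HIST1H1B, CDCP1 and PTP4A1 were named from the order of genes with at least 10 RPKM in the control. The gene, its lists and these rules were chosen with earlier results of these data known. From the order of genes with at least 10 RPKM in the control, 1 gene was left out and is not reported here. Analyses used Python 3.11.15, pandas 2.3.3 and SciPy 1.17.1. Alternatives were the pseudocount, the rows ranked, the quantity ranked and minimum values.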

Additional observations from a re-analysis of the deposited data

How the results depend on the processing

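The difference of TGM2 kept its direction under every pseudocount tried. A pseudocount of 0.1 RPKM gave a log2 ratio of -2.58, none gave -2.60 and 5 RPKM moved it to -1.91, since a larger pseudocount pulls both levels together. The rank by RPKM, 12 for the mean of both libraries, was 10 for the control alone, 34 for the knockout alone and 24 over all rows of the table, where other gene types are added, and stayed at 12 among the 275 protein-coding genes with a mean of at least 1 RPKM. By reads in place of RPKM, an alternative chosen after seeing the data, it was 6. The rank by size of difference, 9, moved to 19 over all rows. It was 6 by size of the log2(RPKM + 1) difference, 7 among lower genes only and 9 with the minimum of 1 RPKM. Of the members of the related lists, 20 were lower, and 14 with at least 20 reads over both libraries, which was also added after seeing the data and left 16 members. Scaling to the library totals was not run. Only effective library sizes were recovered from RPKM, and the totals would have needed the authors' fold changes and p-values, which were not used. No paired analysis was possible because each group had 1 library. The number of libraries, not the depth, limits what these data show of TGM2, while 8 of the 24 listed members of the related lists had fewer than 20 reads or no recovered reads.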
